A study of Homo sapiens with 21 samples.

Results

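The heat shock protein (HSP) and J protein (DNAJ) chaperones of MM.1S myeloma cells were followed through 3 days of pomalidomide and through lentiviral hairpins against ARID2 or Aiolos. Members were chosen by name: symbols starting with HSPA, HSPB, HSPD, HSPE1, HSPH, HSP90, DNAJA, DNAJB or DNAJC, with HSF1 and HSF2 added, listed at 1 TPM or more in at least 3 of the 21 libraries. TPM is the share of a library's transcripts that a gene takes, corrected for gene length. HSPA5, HSP90B1, DNAJB9, DNAJB11, DNAJC3, HSPBAP1, HSPBP1 and hyphenated symbols were left out. Of 69 such symbols 55 passed, among 12559 genes that passed of 17691 listed. The nearest to the limit on the inside was HSPB8, with 9 libraries at 1 TPM or more, all of them from drug-treated cells, and the nearest outside was DNAJB13, with 1 such library and a highest value of 1.02 TPM. HSPB8 entered only through the drug-treated groups and HSPA1L, with 12 such libraries, only through the drug-treated and ARID2 knockdown groups. Both therefore had to be higher there than in untreated or control cells, and their differences are given as a description. The other 13 symbols under the limit, such as HSPB9 with at most 0.953 TPM, were never at 1 TPM. The working name of the set is cytosolic chaperones, but the names also bring in 8 genes of mitochondrial proteins and 9 genes of proteins of the endoplasmic reticulum (ER). These are kept apart only where families are described. Sums, counts and correlations over all 55 members include them, as well as HSF1 and HSF2.

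MM.1S is an established human multiple myeloma line from peripheral blood, a malignancy of plasma cells. RNA was sequenced from 7 groups of 3 libraries. Pomalidomide-treated cells had been given the drug at 1 µM for 24, 48 or 72 h, and untreated cells are the 0 h point of that series. A second set carried a hairpin against ARID2 or one against Aiolos (the protein of IKZF3), delivered by lentivirus for 72 h, beside cells labelled control knockdown, and the labels give neither the hairpin nor the time of that control. A single untreated group serves all 3 drug times, so time in culture and time in drug cannot be told apart. The labels call the libraries biological replicates but name no days or cultures, so a p-value here stands for the spread from library to library, which may be technical.

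Chaperones of these families hold unfolded proteins, fold them and pass them on. HSP70 proteins bind short hydrophobic stretches in a cycle driven by ATP, in which J proteins bring the client and start hydrolysis and HSP110 proteins exchange the nucleotide, while HSP90 acts late on kinases, receptors and other signalling proteins. Small heat shock proteins keep aggregation-prone proteins in solution without ATP. HSF1 is the main transcription factor of the heat shock response and binds heat shock elements in promoters of many of these genes. Plasma cells make very large amounts of antibody and lean heavily on protein folding and disposal. Pomalidomide binds cereblon, a substrate receptor of a ubiquitin ligase, and leads to destruction of the transcription factors Ikaros and Aiolos, and ARID2 is a subunit of the PBAF chromatin remodelling complex.

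The targeted genes were checked first. ARID2 was at 12.4, 12.2 and 12.1 TPM in ARID2 knockdown libraries, against 26.0, 25.4 and 25.4 TPM in control knockdown libraries, a log2 fold change of -1.01 ± 0.07, adjusted p = 8.13e-11. IKZF3 went the other way from its label, with 127, 121 and 141 TPM in libraries labelled Aiolos knockdown and 83.5, 79.2 and 81.4 TPM in control knockdown libraries (0.67 ± 0.05, adjusted p = 1.92e-10), so that group is called by its label throughout. The transcript does not measure the protein. All 6 plasma cell markers checked, among them SDC1 at 588 to 964 TPM, were at 84 TPM or more in every library. Their sum was 3060 to 3320 TPM over the drug-treated libraries against 4020 to 4080 TPM in untreated cells. It was 4440 to 4610 TPM in ARID2 knockdown and 2660 to 2690 TPM in labelled Aiolos knockdown, against 4630 to 4660 TPM in control knockdown. Of 5 B-cell markers 1 passed the limit, BACH2 at 6.18 to 28.1 TPM, while MS4A1 and CD22 stayed at or below 0.0524 TPM. The B-cell sum was 6.36 to 7.24 TPM in untreated cells, 12.4 to 13.1 TPM at 24 h, 23.3 to 24.1 TPM at 48 h and 27.4 to 28.2 TPM at 72 h. With the hairpins it was 9.2 to 10.4 TPM for ARID2 and 18.5 to 21 TPM for labelled Aiolos, against 7.47 to 8.16 TPM in control knockdown. The summed level of the 6 myeloid markers was 42.7 to 73.3 TPM over the drug-treated libraries against 4.26 to 6.73 TPM in untreated cells. It was 15.4 to 16.3 TPM in ARID2 knockdown and 21.6 to 26.5 TPM in labelled Aiolos knockdown, against 6.78 to 8.62 TPM in control knockdown. CD68 reached 68 TPM, while LYZ and CSF1R were under 1 TPM in every library. Summed T and NK markers, 3 of 6 of which passed the limit, were at 7.6 to 12.2 TPM in drug-treated cells against 3.17 to 3.83 TPM in untreated cells, with KLRD1 at or below 0.0178 TPM. They were at 2 to 2.33 TPM in ARID2 knockdown and 2.52 to 2.67 TPM in labelled Aiolos knockdown, against 3.16 to 3.96 TPM in control knockdown. The 13 mitochondrial mRNAs took 17%, 16.7% and 13.7% of TPM after 24, 48 and 72 h of drug against 15.5% in untreated cells, and 18.5% in ARID2 knockdown and 15.7% in labelled Aiolos knockdown libraries against 17.2% in control knockdown. The part of these differences in the results was not tested. In bulk RNA, fewer cells of a type and less RNA per cell cannot be told apart. On log2(TPM + 1), libraries of 1 group correlated at 0.993 to 0.996 and libraries of different groups at 0.908 to 0.987, and none stood apart from its group.

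The chaperone genes took a smaller share of the transcriptome at all 3 drug times, and most of the drop lay in the 6 genes most abundant in untreated cells. The summed level of all 55 members was 8366, 8356 and 8348 TPM in untreated cells, 5990.0, 6008 and 6009 TPM after 24 h of pomalidomide, 6085, 5991 and 5921 TPM after 48 h and 6764, 6449 and 6862 TPM after 72 h. Every drug-treated library lay below every untreated one, and the mean stood at 71.8%, 71.8% and 80.1% of untreated at 24, 48 and 72 h (exact permutation p = 0.1 for each, two-sided, the smallest that 3 against 3 allows). Median-of-ratios scaling gives 69.2%, 68% and 71.5%. ARID2 knockdown libraries summed to 6018, 6110.0 and 6238 TPM and libraries labelled Aiolos knockdown to 5820.0, 5964 and 6219 TPM, against 6255, 6174 and 6161 TPM in control knockdown. Both hairpin groups overlapped with the control knockdown, at 98.8% and 96.8% of its mean (exact permutation p = 0.4 and 0.3). The control knockdown itself was at 74.2% of untreated cells, with no overlap, so every other group summed to less than the untreated one. HSP90AB1, HSPA8 and HSPD1 took ranks 1, 2 and 3, in that order, in all 21 libraries, and with HSP90AA1, HSPA9 and HSPE1 these 6 genes made up 61.4% to 71.8% of the sum. They were chosen as the highest in untreated cells, where they held 71.6% of the sum, so a large share of any drop was set beforehand. HSPD1, HSPA9 and HSPE1 among them are mitochondrial. The loss of the 6 genes came to 2101 of 2354 TPM (89.2%) at 24 h and 2250 of 2357 TPM (95.5%) at 48 h. At 72 h their loss of 1844 TPM exceeded the net loss of 1665 TPM because other members were higher.

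**Figure D1:**
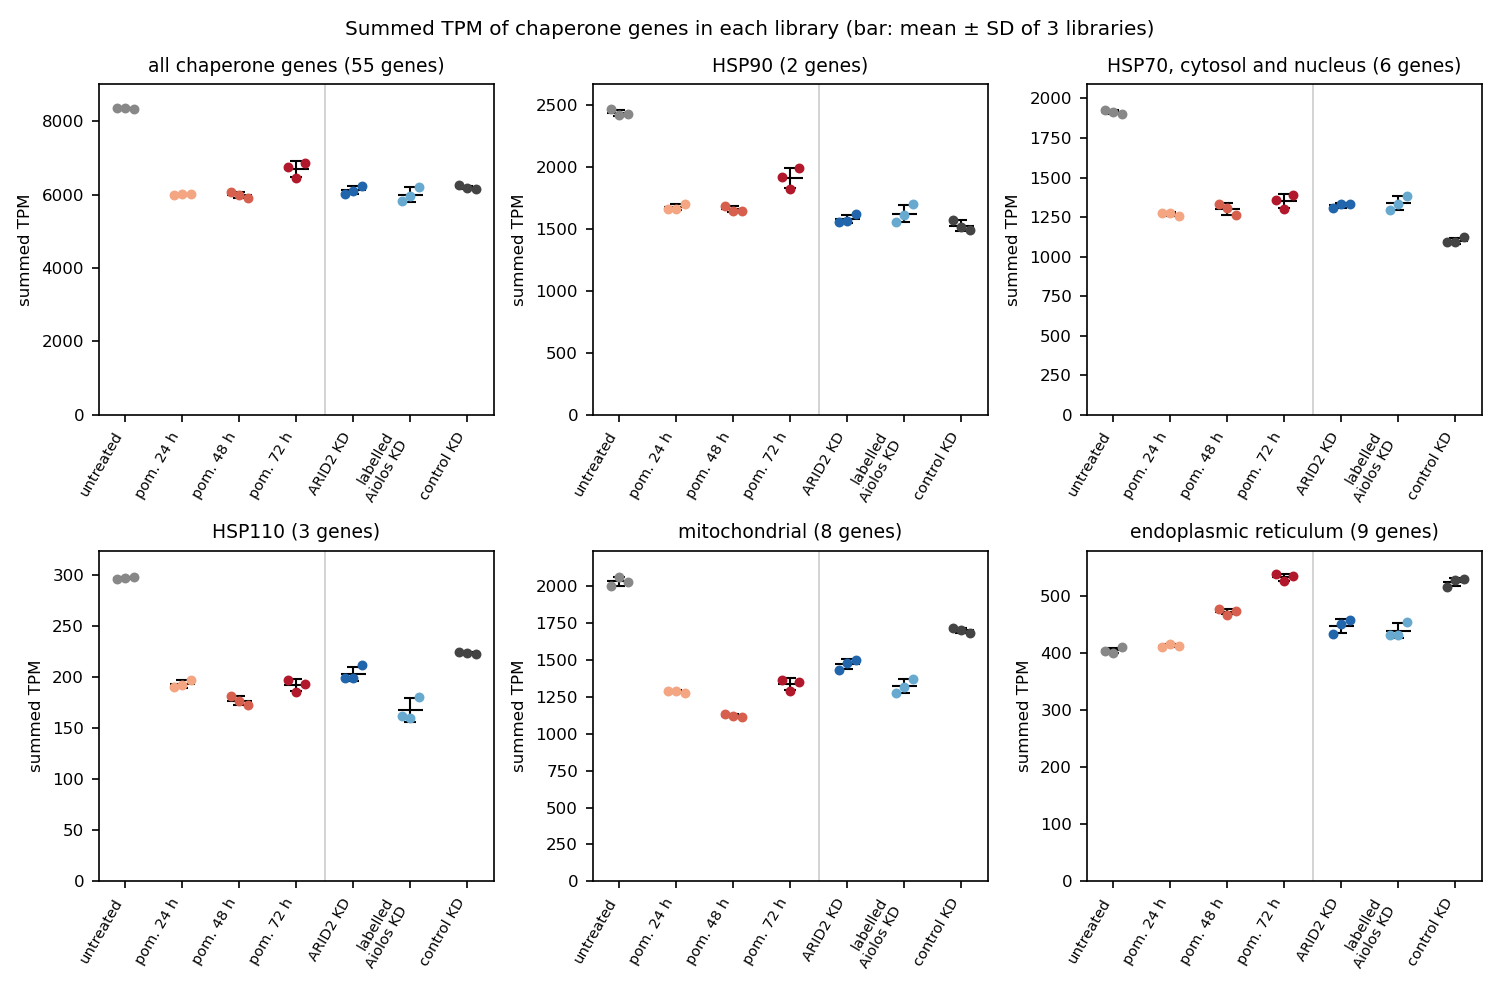
Summed TPM per library for all 55 chaperone genes and for 5 groups of them (y axis, TPM, from 0), by group (x axis); points are libraries, bars the mean ± SD of 3. The untreated libraries stand highest for the whole set, HSP90, HSP70, HSP110 and the mitochondrial genes, while the endoplasmic reticulum genes are highest after 72 h of drug and in control knockdown.

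Gene by gene, the set split in both directions. All fold changes here are differences of log2(TPM + 1) from limma with their standard error after ±, and a gene passes at an adjusted p under 0.05. The 3 drug times share the untreated libraries just as both hairpin groups share the control knockdown. HSPB8 and HSPA1L are among the members higher at each drug time, and HSPA1L is also among those higher in ARID2 knockdown. At 24 h 15 members were higher, 24 lower and 16 did not pass, where 35.1% of all genes were higher and 31% lower (66.1% called). At 48 h the members stood at 22 higher, 22 lower and 11 not passed (all genes 43.8% and 34.8%, 78.7% called), and at 72 h at 28, 19 and 8 (48.1% and 31.6%, 79.8% called). Between 24 and 48 h 19 members were higher and 11 lower (all genes 32.1% and 26.1%, 58.2% called). Between 48 and 72 h 26 were higher and 3 lower (31.6% and 16.5%, 48% called), where 8 were lower with median-of-ratios scaling and 7 with quantile normalization. Median log2 changes of the members were -0.08, 0 and 0.14 at the 3 times, beside 0.03, 0.09 and 0.15 for all genes. In ARID2 knockdown 17 were higher and 17 lower (all genes 33.1% and 29.2%, 62.2% called), and in the libraries labelled Aiolos knockdown 16 were higher and 20 lower (37.2% and 30.7%, 67.9% called). ARID2 knockdown against labelled Aiolos knockdown gave 20 members higher and 12 lower (all genes 30.2% and 35.7%, 65.9% called), or 12 higher without ARID2 knockdown replicate 3. Calls in these comparisons are so common that a count of members near them is no result about the chaperones. Scaling matters for small changes at 72 h: median-of-ratios size factors moved the median of all genes by -0.146, and of all genes called 60.4% were higher as deposited, 50% with those factors and 53.7% with quantile normalization. Between 48 and 72 h that share was 65.7% as deposited, 46.1% with size factors and 53.5% with quantile normalization.

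The share of members lower differed by level. Of the 11 members with a mean over 100 TPM across all libraries, all 11 were lower at 24 h, 8 were lower and 1 higher at 48 h, and 8 were lower and 3 higher at 72 h. Among the 1554 genes of the whole table over 100 TPM, 47.5%, 52.4% and 45.1% were lower at those times. Of the 31 members between 10 and 100 TPM, 9, 14 and 16 were higher and 12, 14 and 11 lower. Of the 13 members under 10 TPM, 6, 7 and 9 were higher and 1, 0 and 0 lower. HSPB8 and HSPA1L are among those higher each time, and had to be for the reason given at the start. All genes were counted by level only over 100 TPM, so the counts at the lower levels have no background. This difference by level was not tested.

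**Figure D2:**
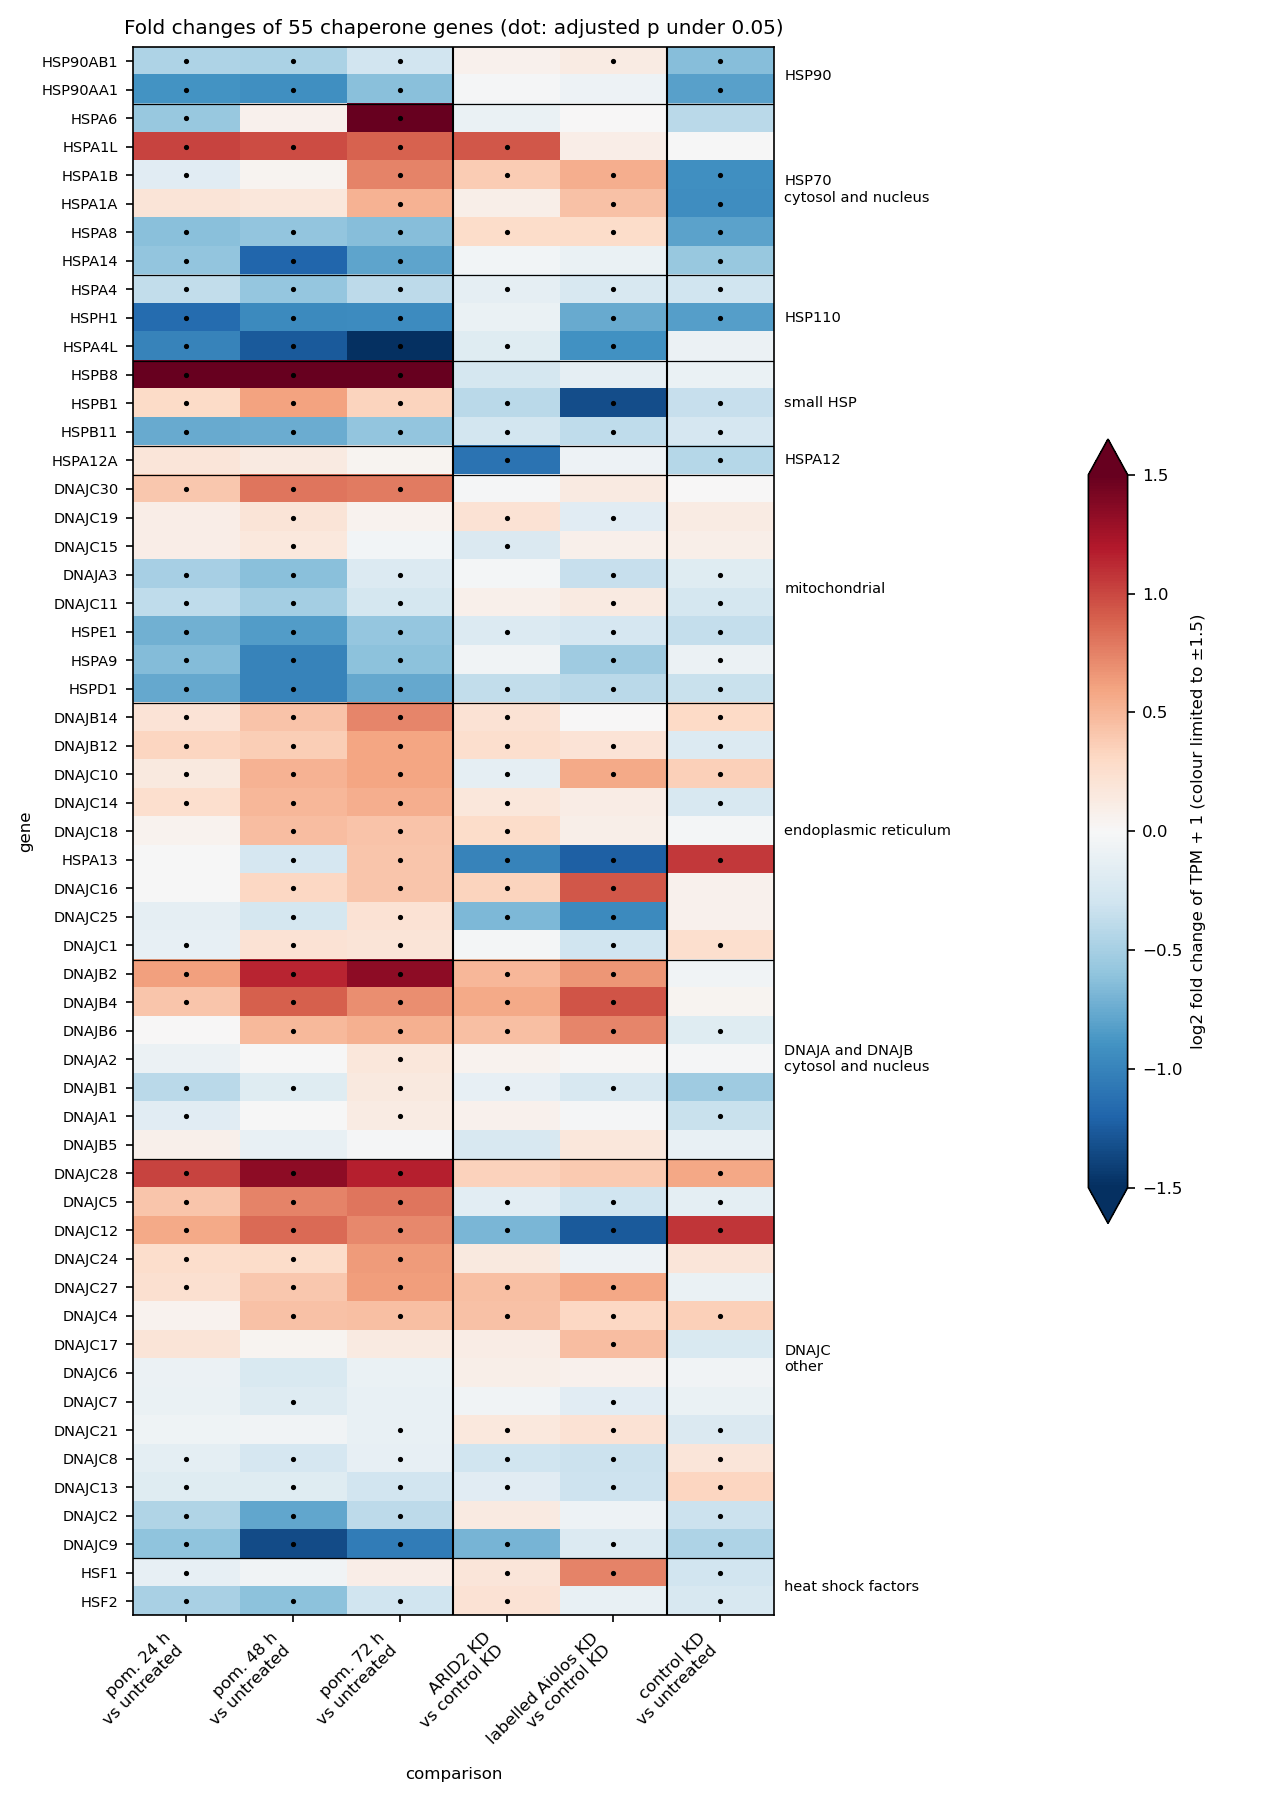
Log2 fold change of TPM + 1 (colour, limited to ±1.5) for each of the 55 genes (rows, grouped by family) in 6 comparisons (columns); a dot marks an adjusted p under 0.05. The HSP90, HSP110 and main mitochondrial rows are blue through the 3 drug columns, and the endoplasmic reticulum rows are all red at 72 h.

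Promoter sequence is shown for members whose 250 bases before and 50 after the RefSeq start site (GRCh38.p14) hold the heat shock element bound by HSF1, since these genes did not move together. A 3-unit element was searched on both strands as GAANNTTCNNGAA or TTCNNGAANNTTC, forms that can overlap each other and the shorter 2-unit form. It was found in 172 of 35116 promoters (0.49%) and in 7 of the 68 promoters of members. Some genes have several promoters listed, so shares of genes and of promoters are not alike. By gene it was in 7 of the 50 member genes with an entry (14%), HSP90AA1, HSP90AB1, HSPA8, HSPA6, HSPD1, DNAJA1 and DNAJB6. A 2-unit form, GAANNTTC or TTCNNGAA, was in 4737 of the 35116 promoters (13.5%) and in 19 of the 68 promoters of members. By gene it was in 18 member genes (36.0%). Of the 7 genes, HSPA6 and DNAJB6 were higher at 72 h (2.14 and 0.53), while HSP90AA1, HSP90AB1, HSPA8 and HSPD1 were lower (-0.63, -0.29, -0.64 and -0.76). DNAJA1, whose element lies just after its start site and is not printed, had 0.13, a call lost in other fits. A match is a description of the letters and shows no binding. HSPD1 has more than 1 start site listed, and its element lies outside the HSPE1 window shown further below. Capitals mark the element in the following windows, written 5′ to 3′ on the strand of the gene, at chr1:161524446-161524498 (plus), chr7:157336853-157336905 (plus), chr14:102087100-102087152 (minus), chr6:44247758-44247863 (plus, 2 elements), chr11:123062159-123062211 (minus, the nearer to the start site of 2 such elements) and chr2:197500048-197500090 (minus, 2 overlapping matches).
HSPA6: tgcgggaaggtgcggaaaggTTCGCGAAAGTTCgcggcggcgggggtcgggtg
DNAJB6: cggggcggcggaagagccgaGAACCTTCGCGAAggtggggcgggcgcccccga
HSP90AA1: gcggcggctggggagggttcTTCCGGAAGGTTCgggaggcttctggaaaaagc
HSP90AB1: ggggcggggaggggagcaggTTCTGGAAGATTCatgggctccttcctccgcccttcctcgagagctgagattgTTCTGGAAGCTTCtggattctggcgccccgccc
HSPA8: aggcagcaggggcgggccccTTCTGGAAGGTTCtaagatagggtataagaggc
HSPD1: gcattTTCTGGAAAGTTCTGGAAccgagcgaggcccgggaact

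HSP90 fell at every drug time and did not return to the untreated level. The constitutive HSP90AB1 (chr6:44246166-44253888, plus strand, GRCh38, GENCODE 29) was at 1952, 1898 and 1912 TPM in untreated cells, 1394, 1382 and 1413 TPM at 24 h, 1395, 1382 and 1383 TPM at 48 h and 1579, 1515 and 1634 TPM at 72 h. Its log2 change at 24 h was -0.46 ± 0.03, adjusted p = 9.15e-11, and at 72 h -0.29 ± 0.03, adjusted p = 4.97e-08. No treated library reached an untreated one, and the 72 h libraries lay above the 48 h libraries (difference 0.18 ± 0.03, adjusted p = 7.06e-05). The stress-inducible HSP90AA1 (chr14:102080738-102139699, minus strand) was at 515, 524 and 521 TPM in untreated cells and at 269, 282 and 289 TPM, 292, 262 and 267 TPM and 339, 310.4 and 359 TPM at the 3 drug times. It was lower each time (-0.89, -0.93 and -0.63, adjusted p = 7.3e-12, 1.17e-12 and 5.6e-10). The HSP90AA1 to HSP90AB1 ratio lay below its untreated range in every library of every other group, with drug or hairpin. It was 0.271 ± 0.0062 in untreated cells and 0.2 ± 0.00644, 0.197 ± 0.0109 and 0.213 ± 0.00746 at 24, 48 and 72 h (SD, n = 3 each). The ratio was 0.226 ± 0.00481 in ARID2 knockdown, 0.209 ± 0.006 in labelled Aiolos knockdown and 0.24 ± 0.00148 in control knockdown. In the hairpin groups HSP90AA1 did not pass, at 291 ± 8.29 TPM in ARID2 knockdown and 281 ± 16.8 TPM in labelled Aiolos knockdown, against 295 ± 10.1 TPM in control knockdown. HSP90AB1 was 0.13 higher in the labelled Aiolos libraries (adjusted p = 0.00125), a call lost under medians of ratios (0.06, adjusted p = 0.0659) and under quantile normalization (0.03, adjusted p = 0.503).

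**Figure D3:**
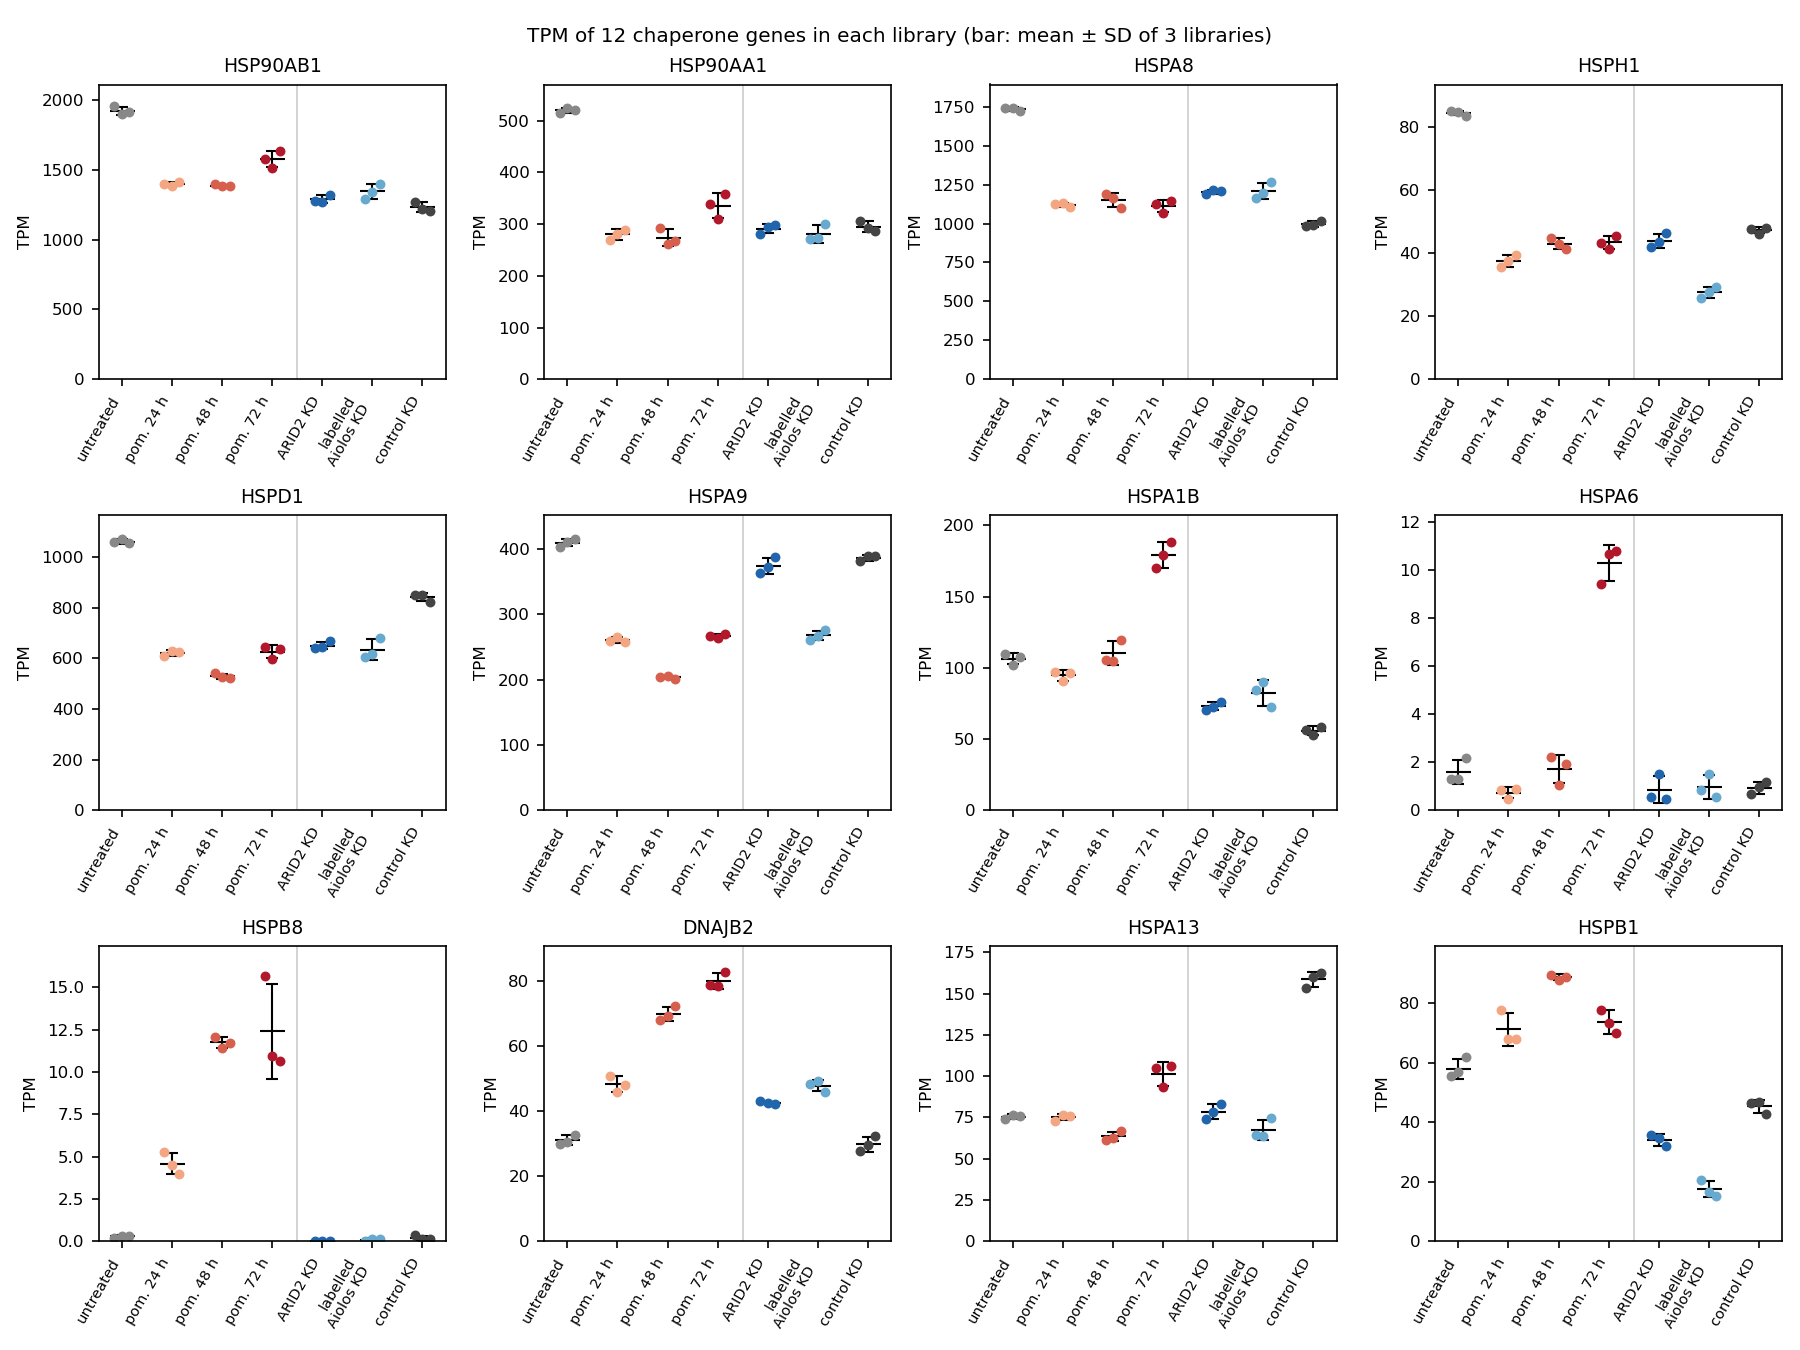
TPM per library (points) with the mean ± SD of 3 (bars) for 12 chaperone genes, each on its own y axis from 0, by group (x axis). HSPA6 stands out at 72 h only, HSPB8 lies at 3.98 to 15.6 TPM in the drug groups and below 1 TPM elsewhere, HSPA13 is highest in control knockdown, and HSPB1 moves up in drug and down with both hairpins.

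Of the 6 cytosolic HSP70 genes 1 was higher and 4 lower at 24 h (2 lower without untreated replicate 3 or without pomalidomide 24 h replicate 2), 1 and 2 at 48 h, and 4 and 2 at 72 h. The 1 higher at 24 and 48 h was HSPA1L, which passed the limit only through the drug-treated and ARID2 knockdown groups. Among all genes 35.1%, 43.8% and 48.1% were higher and 31%, 34.8% and 31.6% lower at 24, 48 and 72 h. The constitutive HSPA8 and HSPA14 were the ones lower at 72 h, and HSPA1A, HSPA1B, HSPA6 and HSPA1L were the ones higher. HSPA8, the constitutive HSC70, was at 1745, 1741 and 1724 TPM in untreated cells, 1124, 1132 and 1106 TPM at 24 h, 1191, 1163 and 1103 TPM at 48 h and 1125, 1066 and 1142 TPM at 72 h. Its log2 changes were -0.63 ± 0.03, -0.59 ± 0.03 and -0.64 ± 0.03 (adjusted p at 72 h = 2.44e-13). With the hairpins it went the other way, at 1189, 1216 and 1209 TPM in ARID2 knockdown and 1167, 1197 and 1266 TPM in labelled Aiolos knockdown, against 985, 992 and 1017 TPM in control knockdown (0.27 ± 0.03, adjusted p = 4.01e-07, and 0.28 ± 0.03, adjusted p = 2.14e-07). The hairpin groups did not overlap with their control. Both nevertheless lay below untreated cells, and the control knockdown had the lowest HSPA8 mean of all groups. HSPA14, which acts at the ribosome with DNAJC2, had 64.0 ± 1.11 TPM in untreated cells and 42.3 ± 1.93, 27.6 ± 1.71 and 36.5 ± 1.39 TPM at the drug times (SD, n = 3 each), lowest at 48 h (-1.18 ± 0.05, adjusted p = 5.66e-15). In GENCODE its exons overlap CDNF on the other strand, and the kit does not mark strand, so reads of that pair cannot be told apart.

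HSPA1B, encoding the stress-inducible HSP70 (chr6:31827735-31830255, plus strand), was at 109, 102 and 108 TPM in untreated cells, 96.9, 90.5 and 96.6 TPM at 24 h, 106, 105 and 119.8 TPM at 48 h and 169.8, 179.5 and 188 TPM at 72 h. Only the 72 h libraries lay clear above all untreated ones (0.75 ± 0.07, adjusted p = 2.49e-09), and the step between 48 and 72 h passed (0.70 ± 0.07, adjusted p = 6.74e-08). It was also higher with both hairpins, at 70.7, 72.3 and 76.2 TPM in ARID2 knockdown and 84.2, 90.1 and 72.7 TPM in labelled Aiolos knockdown, against 56.1, 52.8 and 58.8 TPM in control knockdown (0.38 ± 0.07, adjusted p = 4.81e-05, and 0.55 ± 0.07, adjusted p = 4e-07). These hairpin levels were nevertheless below untreated cells. HSPA1A is a near-identical copy and was listed at 0.0484 to 0.0860 of the HSPA1B level by group mean, so the split between the copies is uncertain. Its 72 h value, 10.5 ± 2.07 TPM against 6.95 ± 0.742 TPM in untreated cells (0.52 ± 0.19, adjusted p = 0.0172), lost the call without pomalidomide 72 h replicate 1 (adjusted p = 0.0999), without untreated replicate 3 (0.0615) and under both other scalings (0.0801 and 0.0561).

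HSPA6 (chr1:161524540-161526910, plus strand), a strictly stress-inducible HSP70 with a close pseudogene copy, HSPA7, was high at 72 h alone. It was at 1.29, 1.30 and 2.18 TPM in untreated cells, 0.845, 0.474 and 0.873 TPM at 24 h, 2.21, 1.05 and 1.91 TPM at 48 h and 9.43, 10.7 and 10.8 TPM at 72 h. The 72 h libraries stood far above every other library of the series (2.14 ± 0.21, adjusted p = 1.22e-08, and 2.08 ± 0.21, adjusted p = 1.65e-07 against 48 h). In the hairpin groups it was at 0.570, 1.5 and 0.486 TPM in ARID2 knockdown, 0.837, 1.51 and 0.558 TPM in labelled Aiolos knockdown and 0.675, 0.972 and 1.17 TPM in control knockdown. Neither comparison passed, and the 72 h drug effect exceeded the ARID2 effect by 2.24 ± 0.30, adjusted p = 1.4e-06 and that of the labelled Aiolos libraries by 2.14 ± 0.30, adjusted p = 3.14e-06. HSPA1L, a low-level member of the same genomic cluster as HSPA1A and HSPA1B, was at 0.566 ± 0.424 TPM in untreated cells and 2.09 ± 0.349, 2.01 ± 0.207 and 1.84 ± 0.344 TPM at 24, 48 and 72 h. With the hairpins it was at 1.90 ± 0.0938 TPM in ARID2 knockdown and 0.638 ± 0.198 TPM in labelled Aiolos knockdown, against 0.520 ± 0.0531 TPM in control knockdown. The differences on the log2 scale were 1.01, 0.98 and 0.89 at the drug times and 0.93 with the ARID2 hairpin, in a gene that passed the limit only through those groups.

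All 3 HSP110 genes, the nucleotide exchange factors of HSP70, were lower at every drug time. The shares of all genes lower were 31%, 34.8% and 31.6% at 24, 48 and 72 h. HSPH1 was at 84.8, 84.8 and 83.5 TPM in untreated cells, 35.7, 37.4 and 39.2 TPM at 24 h, 44.9, 42.7 and 41.3 TPM at 48 h and 43.3, 41.3 and 45.5 TPM at 72 h. The drop was in place at 24 h (-1.15 ± 0.05, adjusted p = 1.39e-13) and stayed there (-0.95 at 72 h, adjusted p = 8e-13). HSPA4L was at 29.6, 30.2 and 30.5 TPM in untreated cells, 12.9, 14.7 and 16.3 TPM at 24 h, 11.4, 12.7 and 12 TPM at 48 h and 9.06, 8.86 and 9.56 TPM at 72 h. It went on falling at each step (-0.26 ± 0.07, adjusted p = 0.00269 for 48 against 24 h, and -0.36 ± 0.07, adjusted p = 0.000224 for 72 against 48 h). It had the largest drop of any member at 72 h (-1.61 ± 0.07, adjusted p = 1.38e-14). The hairpins differed here. HSPA4L was at 23.5, 24.5 and 26.6 TPM in ARID2 knockdown and 13.9, 14.7 and 15.3 TPM in labelled Aiolos knockdown, against 27.6, 29.2 and 27.8 TPM in control knockdown. HSPH1 was at 41.9, 43.5 and 46.2 TPM in ARID2 knockdown and 25.8, 27.6 and 29.3 TPM in labelled Aiolos knockdown, against 47.5, 46.2 and 47.9 TPM in control knockdown. ARID2 knockdown exceeded the labelled Aiolos libraries by 0.73 ± 0.07, adjusted p = 1.01e-08 for HSPA4L and by 0.65 ± 0.05, adjusted p = 6.91e-10 for HSPH1. HSPA4L was -0.18 in ARID2 knockdown against control knockdown (adjusted p = 0.0287), and that call was lost without control knockdown replicate 2 (adjusted p = 0.0996) or without ARID2 knockdown replicate 1 (0.125) or 2 (0.0752). HSPA4 fell by less, with 183 ± 1.19 TPM in untreated cells and 141 ± 1.05, 122 ± 3.22 and 139.7 ± 4.87 TPM at 24, 48 and 72 h.

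Of the 3 members named HSPB, 2 were higher and 1 lower at each drug time, and 2 were lower with each hairpin (1 with ARID2 without ARID2 knockdown replicate 3). HSPB1 and HSPB8 were the 2 higher at each drug time, HSPB8 having entered only through the drug-treated groups. The 1 lower was HSPB11, which is no small heat shock protein by function. Among all genes 35.1%, 43.8% and 48.1% were higher at 24, 48 and 72 h. With the ARID2 and labelled Aiolos hairpins 29.2% and 30.7% of all genes were lower. HSPB8 (chr12:119178642-119221131, plus strand), which works with BAG3 to send misfolded proteins to autophagy, was at 0.213, 0.324 and 0.338 TPM in untreated cells, 5.25, 4.52 and 3.98 TPM at 24 h, 12.1, 11.4 and 11.7 TPM at 48 h and 15.6, 10.9 and 10.6 TPM at 72 h. All treated libraries lay above all untreated ones, by 2.11 ± 0.13, 3.30 ± 0.13 and 3.36 ± 0.13 on the log2 scale, a description for the reason given at the start. The log2(TPM + 1) scale understates changes of such low genes. It stayed low with the hairpins, listed at 0 in all 3 ARID2 knockdown libraries, at 0, 0.157 and 0.154 TPM in labelled Aiolos knockdown and at 0.350, 0.147 and 0.130 TPM in control knockdown. Neither hairpin passed, although ARID2 knockdown did with a pseudocount of 0.1 (-1.56, adjusted p = 0.000301). HSPB1 (chr7:76302544-76304295, plus strand), the widely expressed HSP27, was at 55.5, 56.7 and 61.8 TPM in untreated cells, 77.6, 68.0 and 68.1 TPM at 24 h, 89.6, 87.7 and 88.9 TPM at 48 h and 77.7, 73.2 and 69.9 TPM at 72 h. It was highest at 48 h (0.61 ± 0.08, adjusted p = 5.44e-07), and its smaller difference at 72 h (0.34 ± 0.08, adjusted p = 0.000512) lost the call under medians of ratios (0.18, adjusted p = 0.0514). With the hairpins it fell to 35.7, 34.7 and 31.9 TPM in ARID2 knockdown and 20.5, 16.7 and 15.4 TPM in labelled Aiolos knockdown, against 46.4, 46.8 and 42.8 TPM in control knockdown. The groups did not overlap (-0.40 ± 0.08, adjusted p = 0.000154, and -1.33 ± 0.08, adjusted p = 7.06e-12). HSPB11, also known as IFT25, a subunit of the transport machinery of cilia despite its name, was at 23.5 ± 0.472 TPM in untreated cells and 13.5 ± 1.36, 13.6 ± 1.06 and 15.3 ± 2.27 TPM at 24, 48 and 72 h.

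The mitochondrial chaperonin fell with the drug and with both hairpins. HSPD1 (HSP60) and HSPE1 (HSP10) form the folding chamber of the mitochondrial matrix. They are transcribed in opposite directions from a shared promoter, and 154 bases of the HSPE1 window at chr2:197500129-197500378 (plus strand, the 250 bases before its RefSeq start site) also lie in an opposite-strand window of HSPD1. The heat shock element of HSPD1 printed above, at chr2:197500048-197500090, lies outside this window. It precedes another listed start site of HSPD1 than the 1 used here. The start sites of HSPE1 and of this HSPD1 window are 105 bases apart, and capitals mark the shared bases.
HSPE1: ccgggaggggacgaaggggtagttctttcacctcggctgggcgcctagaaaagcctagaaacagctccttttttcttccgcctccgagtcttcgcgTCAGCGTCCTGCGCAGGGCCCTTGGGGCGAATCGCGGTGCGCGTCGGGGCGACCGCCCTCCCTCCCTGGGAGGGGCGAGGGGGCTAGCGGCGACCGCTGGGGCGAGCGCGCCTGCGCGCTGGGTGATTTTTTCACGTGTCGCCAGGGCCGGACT
HSPD1 was at 1057, 1069.6 and 1054 TPM in untreated cells, 608, 629 and 625 TPM at 24 h, 541, 524 and 521 TPM at 48 h and 642, 595 and 637 TPM at 72 h. HSPE1 was at 320.2, 356 and 329.8 TPM in untreated cells, 221, 199 and 189.8 TPM at 24 h, 189, 185 and 188 TPM at 48 h and 238, 211 and 221 TPM at 72 h. Both were lowest at 48 h (-1.0 ± 0.04, adjusted p = 2.01e-15 for HSPD1, and -0.84 ± 0.05, adjusted p = 1.28e-11 for HSPE1), with no treated library in the untreated range. HSPD1 was at 639, 643 and 667 TPM in ARID2 knockdown and 603, 617 and 681 TPM in labelled Aiolos knockdown, against 849.9, 849.9 and 823 TPM in control knockdown (-0.37 ± 0.04, adjusted p = 3.73e-08, and -0.41 ± 0.04, adjusted p = 6.36e-09). HSPE1 was at 212, 238 and 229 TPM in ARID2 knockdown and 214, 223 and 218 TPM in labelled Aiolos knockdown, against 268, 256 and 258 TPM in control knockdown (-0.20 ± 0.05, adjusted p = 0.00247, and -0.26 ± 0.05, adjusted p = 0.000278). The pair fell in each of these comparisons, although the ARID2 call of HSPE1 was lost under quantile normalization (-0.13, adjusted p = 0.0508). The HSPD1 to HSPE1 ratio stayed between 2.7 and 3.32 in every library. In GENCODE 29 exons of the 2 genes overlap on opposite strands, and HSPE1 shares exons with the readthrough gene HSPE1-MOB4, so part of their reads cannot be told apart.

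HSPA9, the HSP70 of the mitochondrial matrix, separated the hairpins. It was at 404, 410.5 and 415 TPM in untreated cells, 259, 265 and 257 TPM at 24 h, 204, 205 and 202 TPM at 48 h and 266, 265 and 269.6 TPM at 72 h. The 48 h libraries were lowest (-1.01 ± 0.03, adjusted p = 1.22e-17) and the 72 h libraries had partly come back (72 against 48 h 0.39 ± 0.03, adjusted p = 7.43e-10). It was at 363, 372 and 388 TPM in ARID2 knockdown and 261, 266 and 275 TPM in labelled Aiolos knockdown, against 381, 389 and 390.0 TPM in control knockdown. The labelled Aiolos libraries were lower (-0.53 ± 0.03, adjusted p = 8.59e-13), and the difference between the hairpins passed (0.48 ± 0.03, adjusted p = 4.33e-12). ARID2 knockdown did not pass (-0.05 ± 0.03, adjusted p = 0.134) except under medians of ratios (-0.08, adjusted p = 0.0104) or without ARID2 knockdown replicate 3 (-0.07, adjusted p = 0.0308). Its J protein DNAJA3 was at 74.2 ± 0.652 TPM in untreated cells and at 52.3 ± 0.655, 47.8 ± 1.52 and 64.2 ± 1.33 TPM at 24, 48 and 72 h. It was at 51.4 ± 2.47 TPM in labelled Aiolos knockdown against 65.6 ± 1.09 TPM in control knockdown (-0.35 ± 0.04, adjusted p = 6.22e-08). DNAJC30, another mitochondrial J protein, was the only member higher at 72 h among the 8 listed as mitochondrial here. DNAJC30 was at 16.6, 21.9 and 20.6 TPM in untreated cells, 26.9, 28.4 and 23.5 TPM at 24 h, 33.7, 34.7 and 36.7 TPM at 48 h and 33.9, 35.6 and 33.1 TPM at 72 h. It was higher at 72 h (0.77 ± 0.09, adjusted p = 8.39e-08). Its exons overlap BUD23 on the opposite strand, whose reads cannot be told apart from its own. At 48 h DNAJC15 and DNAJC19 were called higher too, 3 members in all, but 1 with median-of-ratios scaling. Of the 8 mitochondrial members 1 was higher and 5 lower at 72 h, 1 and 3 in ARID2 knockdown, and 1 and 5 in the labelled Aiolos libraries (0 and 5 without control knockdown replicate 2 or Aiolos knockdown replicate 2). All genes stood at 48.1% higher and 31.6% lower at 72 h, 33.1% and 29.2% in ARID2 knockdown, and 37.2% and 30.7% in the labelled Aiolos libraries.

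The 9 ER members were all higher after 72 h of drug, with a median log2 change of 0.43, where 48.1% of all genes were higher. With median-of-ratios factors 7 of the 9 passed, all higher. At 24 h 4 were higher and 1 lower (3 and 2 without pomalidomide 24 h replicate 2), and at 48 h 7 were higher and 2 lower (1 lower without untreated replicate 1 or pomalidomide 48 h replicate 1). Among all genes 35.1% were higher and 31% lower at 24 h, and 43.8% and 34.8% at 48 h. DNAJC10 is a J protein that reduces disulfide bonds of proteins bound for degradation. It was at 38.9, 39.4 and 38.9 TPM in untreated cells, 41.6, 44.3 and 43.7 TPM at 24 h, 58.3, 56.6 and 55.4 TPM at 48 h and 61.9, 56.6 and 59.1 TPM at 72 h (0.59 ± 0.05, adjusted p = 3.43e-10). DNAJB12, an ER membrane J protein facing the cytosol, was at 38.1 ± 0.87 TPM in untreated cells and 47.7 ± 2.66, 49.6 ± 1.73 and 57.9 ± 2.97 TPM at 24, 48 and 72 h (0.59 ± 0.05, adjusted p = 5.78e-10). Its relative DNAJB14 was at 13 ± 0.531 TPM in untreated cells and 15.2 ± 1.4, 17.9 ± 1.02 and 22.5 ± 2.04 TPM at the same times (0.74 ± 0.08, adjusted p = 7.81e-08). The change of DNAJC25, an ER membrane J protein, was small, at 20.3 ± 2.26 TPM after 72 h against 17.2 ± 1.42 TPM in untreated cells, with overlapping libraries (0.22 ± 0.10, adjusted p = 0.0459). That call was lost in 13 of 21 fits leaving out 1 library, under both other scalings and without the filter on low values.

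With the hairpins the ER members split, 5 higher and 3 lower in ARID2 knockdown and 3 higher and 3 lower in the labelled Aiolos libraries. Among all genes 33.1% were higher and 29.2% lower in ARID2 knockdown, and 37.2% and 30.7% in the labelled Aiolos libraries. HSPA13 (chr21:14371115-14383484, minus strand), an ER-linked HSP70 without the usual client-binding domain, was at 74.1, 78.1 and 83.3 TPM in ARID2 knockdown and 64.5, 63.7 and 74.4 TPM in labelled Aiolos knockdown, against 153, 160.0 and 162 TPM in control knockdown. Both hairpin groups lay far under the control knockdown (-1.01 ± 0.06, adjusted p = 1.01e-11, and -1.22 ± 0.06, adjusted p = 2.78e-13). The control knockdown was itself well above untreated cells, which had 74.0, 76.5 and 76.2 TPM (1.06 ± 0.06, adjusted p = 3.17e-11). The drug series ran 73.1, 76.8 and 75.6 TPM at 24 h, 61.3, 62.6 and 66.7 TPM at 48 h and 105, 93.2 and 106 TPM at 72 h. The hairpin levels thus lay close to those of untreated cells. DNAJC25 was at 10.1, 10.7 and 12.1 TPM in ARID2 knockdown and 9.12, 8.49 and 8.78 TPM in labelled Aiolos knockdown, against 17.9, 17.7 and 18.5 TPM in control knockdown, in this case with untreated cells at the control level (17.2 ± 1.42 TPM). Both were lower (-0.68 ± 0.10, adjusted p = 5.47e-06, and -0.96 ± 0.10, adjusted p = 3.49e-08), in a gene that shares exons with the readthrough gene DNAJC25-GNG10. DNAJC10 and DNAJC16 were higher in the labelled Aiolos libraries, DNAJC10 at 72.8, 71.1 and 81.2 TPM against 50.5, 50.01 and 50.4 TPM in control knockdown (0.57 ± 0.05, adjusted p = 1.17e-09). DNAJC16 was at 38.0, 33.7 and 42.4 TPM in the labelled Aiolos libraries against 19.8, 19.9 and 18.7 TPM in control knockdown (0.93 ± 0.07, adjusted p = 1.59e-10). The hairpins differed at both genes (-0.70 and -0.59 for ARID2 against labelled Aiolos, adjusted p = 4.75e-11 and 1.31e-07). DNAJC16 overlaps AGMAT on the opposite strand.

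Of the 7 cytosolic and nuclear DNAJA and DNAJB genes 2 were higher and 2 lower at 24 h and 6 were higher at 72 h, but 3 with median-of-ratios factors and 3 without pomalidomide 72 h replicate 3. All genes stood at 35.1% higher and 31% lower at 24 h and 48.1% higher at 72 h. DNAJB2 rose the most. DNAJB2 (chr2:219279267-219286900, plus strand), which hands ubiquitinated clients to the proteasome, was at 30.0, 30.3 and 32.8 TPM in untreated cells, 50.8, 45.8 and 48.1 TPM at 24 h, 68.0, 69.1 and 72.4 TPM at 48 h and 78.7, 78.3 and 82.7 TPM at 72 h. Each time stood clear of the one before (0.62 ± 0.05, adjusted p = 2.66e-09 at 24 h, and 1.34 ± 0.05, adjusted p = 4.32e-15 at 72 h). The step between 48 and 72 h (0.19 ± 0.05, adjusted p = 0.00506) lost its call under medians of ratios (0.11, adjusted p = 0.127) and quantile normalization (0.07, adjusted p = 0.309). It was at 43.0, 42.3 and 42.2 TPM in ARID2 knockdown and 48.2, 49.3 and 45.9 TPM in labelled Aiolos knockdown, against 27.7, 29.5 and 32.3 TPM in control knockdown (0.50 ± 0.05, adjusted p = 6.81e-08, and 0.67 ± 0.05, adjusted p = 7.29e-10). DNAJB6, a suppressor of polyglutamine aggregation, was at 25.0 ± 1.5 TPM in untreated cells and 25.1 ± 0.19, 35.3 ± 0.933 and 36.5 ± 1.75 TPM at 24, 48 and 72 h. With the hairpins it was at 30.3 ± 1.66 TPM in ARID2 knockdown and 36.9 ± 0.981 TPM in labelled Aiolos knockdown, against 21.8 ± 0.455 TPM in control knockdown. It did not pass at 24 h and was higher in the other 4 comparisons (0.48, 0.53, 0.45 and 0.73, adjusted p at most 1.1e-07). DNAJB4, a heat-inducible J protein, was at 6.94 ± 0.976 TPM in untreated cells and 9.67 ± 1.89, 13.8 ± 0.856 and 11.8 ± 1.12 TPM at the drug times, overlapping with untreated cells at 24 h only. In the labelled Aiolos libraries it reached 14.7 ± 1.42 TPM and in ARID2 knockdown 11.1 ± 0.249 TPM, against 7.19 ± 0.95 TPM in control knockdown (0.94 ± 0.12, adjusted p = 6.65e-07, and 0.57 ± 0.12, adjusted p = 0.000349).

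DNAJB1 and DNAJA1, the main J partners of cytosolic HSP70, had small changes. DNAJB1 was at 98.3, 96.8 and 94.8 TPM in untreated cells, 75.3, 72.7 and 71.3 TPM at 24 h, 86.0, 86.9 and 82.6 TPM at 48 h and 109, 101 and 112 TPM at 72 h. It fell at 24 h (-0.40 ± 0.05, adjusted p = 4.37e-07). The value at 72 h, 0.15 ± 0.05 with adjusted p = 0.00848, turned to -0.014 under medians of ratios (adjusted p = 0.803) and lost its call without pomalidomide 72 h replicate 3 (adjusted p = 0.0521). DNAJA1 was at 339, 329 and 334 TPM in untreated cells, 289, 294 and 305 TPM at 24 h, 342, 329 and 329.7 TPM at 48 h and 374, 336 and 387 TPM at 72 h. Its 24 h value (-0.18 ± 0.04, adjusted p = 0.00146) lost its call under quantile normalization (adjusted p = 0.779). Its 72 h value (0.13 ± 0.04, adjusted p = 0.0109) turned to -0.034 under medians of ratios (adjusted p = 0.447) and lost its call without pomalidomide 72 h replicate 3 (adjusted p = 0.086). In the hairpin groups DNAJA1 did not pass, and DNAJB1 was at 56.3 ± 3.41 TPM in labelled Aiolos knockdown against 66.4 ± 3.95 TPM in control knockdown (-0.23 ± 0.05, adjusted p = 0.000225).

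The DNAJC proteins share only the J domain and serve many processes. Of the 14 not listed here under the ER or mitochondria, 6 were higher and 5 lower at 72 h (3 lower without untreated replicate 1 or pomalidomide 72 h replicate 2). These shares of 42.9% and 35.7% are near the 48.1% and 31.6% of all genes, so the counts are no result about the family. DNAJC9, a chaperone of histones H3 and H4, was at 95.2, 96.7 and 98.7 TPM in untreated cells, 62.1, 65.6 and 62.4 TPM at 24 h, 37.1, 40.5 and 35.3 TPM at 48 h and 45.7, 45.6 and 47.9 TPM at 72 h. It had the largest fall of any member at 48 h (-1.34 ± 0.05, adjusted p = 1.62e-15) and recovered a little by 72 h (72 against 48 h 0.30 ± 0.05, adjusted p = 5.68e-05). It was at 44.4, 40.8 and 44.0 TPM in ARID2 knockdown and 57.4, 61.1 and 63.3 TPM in labelled Aiolos knockdown, against 73.1, 69.0 and 68.7 TPM in control knockdown, lower with ARID2 than with the labelled Aiolos hairpin (-0.48 ± 0.05, adjusted p = 3.68e-08). In GENCODE 29 it overlaps exons of MRPS16 on its own strand and of FAM149B1 on the other. DNAJC5, the cysteine string protein of secretory vesicles, was at 45.5, 46.3 and 51.7 TPM in untreated cells, 63.5, 63.0 and 65.6 TPM at 24 h, 78.1, 84.4 and 79.3 TPM at 48 h and 83.0, 85.6 and 82.7 TPM at 72 h. It rose with the drug (0.80 ± 0.05, adjusted p = 2.2e-11 at 72 h). It was lower in the labelled Aiolos libraries, at 37.3, 35.3 and 32.0 TPM against 44.0, 41.8 and 43.8 TPM in control knockdown (-0.30 ± 0.05, adjusted p = 3.63e-05). The 72 h drug effect exceeded that of the labelled Aiolos libraries by 1.10 ± 0.07, adjusted p = 7.96e-11. DNAJC12, a co-chaperone of aromatic amino acid hydroxylases, was low throughout, with 1.13 ± 0.248 TPM in untreated cells and 2.17 ± 0.527, 2.84 ± 0.372 and 2.52 ± 0.57 TPM at 24, 48 and 72 h. It was at 1.85 ± 0.75 TPM in ARID2 knockdown and 0.871 ± 0.0566 TPM in labelled Aiolos knockdown, against 3.51 ± 0.754 TPM in control knockdown. It was higher at each drug time (0.57, 0.85 and 0.72) and lower with both hairpins (-0.68 and -1.26), and the 24 h call was lost under quantile normalization (0.30, adjusted p = 0.129). The control knockdown libraries of DNAJC12 were themselves above every untreated one, and the hairpin means lay nearer to untreated cells than to that control. DNAJC27 was at 9.21 ± 0.383 TPM in ARID2 knockdown against 6.52 ± 0.804 TPM in control knockdown (0.45 ± 0.08, adjusted p = 8.18e-05). It was at 10.2 ± 0.794 TPM in labelled Aiolos knockdown. With the drug DNAJC27 was at 8.45 ± 0.27, 9.63 ± 0.913 and 11.3 ± 0.546 TPM at 24, 48 and 72 h, against 7.01 ± 0.329 TPM in untreated cells. DNAJC4 was at 46.4 ± 3.05 TPM in ARID2 knockdown against 33.8 ± 2.28 TPM in control knockdown (0.44 ± 0.06, adjusted p = 2.15e-06). In labelled Aiolos knockdown DNAJC4 was at 42.0 ± 1.38 TPM. With the drug it was at 27.2 ± 0.993, 35.7 ± 2.34 and 35.9 ± 0.914 TPM at 24, 48 and 72 h, against 26.1 ± 1.59 TPM in untreated cells. DNAJC13, an endosomal J protein, was at 44.0 ± 2.15 TPM at 72 h against 53.9 ± 1.27 TPM in untreated cells (-0.29 ± 0.06, adjusted p = 0.000189).

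HSPA12A, a distant relative of HSP70, was lower with the ARID2 hairpin. It was at 1.24, 1.70 and 1.31 TPM in ARID2 knockdown and 3.96, 3.61 and 4.18 TPM in labelled Aiolos knockdown, against 4.22, 4.33 and 3.96 TPM in control knockdown. ARID2 knockdown was lower than the control (-1.10 ± 0.11, adjusted p = 3.56e-08) and lower than the labelled Aiolos libraries (-1.03 ± 0.11, adjusted p = 7.67e-08), and no drug time passed (0.19, 0.13 and 0.04). DNAJC28 was at 0.333 ± 0.137 TPM in untreated cells and 1.72 ± 0.597, 2.38 ± 0.314 and 1.98 ± 0.159 TPM at the drug times, and was higher at each (1.01, 1.34 and 1.17). HSPA12A, DNAJC28, DNAJC12, HSPA1L, HSPA4, HSPB11, DNAJA3, DNAJB14, DNAJC1, DNAJC11 and DNAJC21 were chosen for naming after their values were seen.

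Of the heat shock factors, HSF2 was lower with the drug and HSF1 higher with the labelled Aiolos hairpin. HSF1 was at 93.3, 92.9 and 96.7 TPM in untreated cells, 88.7, 82.5 and 88.8 TPM at 24 h, 90.5, 90.7 and 91.4 TPM at 48 h and 98.7, 109 and 96.8 TPM at 72 h. Its drug changes were small, at -0.12, -0.05 and 0.10. The call at 24 h (adjusted p = 0.04) was lost without any 1 of the 3 untreated libraries (adjusted p = 0.0602, 0.0544 and 0.124) and without pomalidomide 24 h replicate 2 (0.18). At 72 h it passed without pomalidomide 72 h replicate 3 (0.13, adjusted p = 0.0321) or Aiolos knockdown replicate 3 (0.10, adjusted p = 0.02). It was at 87.4, 88.4 and 87.7 TPM in ARID2 knockdown and 136, 137 and 118 TPM in labelled Aiolos knockdown, against 79.5, 76.0 and 76.4 TPM in control knockdown. The labelled Aiolos libraries stood above every other library of the hairpin set (0.75 ± 0.05, adjusted p = 6.21e-11). The ARID2 change was smaller (0.18 ± 0.05, adjusted p = 0.00352, difference between the hairpins -0.56 ± 0.05, adjusted p = 4.93e-09). HSF1 overlaps DGAT1 on the opposite strand. HSF2, the related factor, was at 30.8, 34.9 and 34.6 TPM in untreated cells, 22.9, 24.8 and 23.0 TPM at 24 h, 21.3, 21.3 and 21.6 TPM at 48 h and 27.7, 26.2 and 27.4 TPM at 72 h. It was lower at each time (-0.49, -0.62 and -0.29, adjusted p at most 0.00061) with no overlap with untreated cells. In ARID2 knockdown HSF2 was at 33.0 ± 2.77 TPM against 28.2 ± 1.9 TPM in control knockdown (0.22 ± 0.07, adjusted p = 0.0094), a call lost without control knockdown replicate 1 (adjusted p = 0.055) or ARID2 knockdown replicate 3 (0.0691).

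Drug and hairpin effects, which share no libraries, were set side by side for the 55 genes. Of 19 members lower at 72 h and 17 lower in ARID2 knockdown, 8 were lower in both, 42.1% and 47.1% of each list, beside 46.8% and 50.7% for all genes tested. For the libraries labelled Aiolos knockdown, with 20 members lower, 11 were lower in both, 57.9% and 55% of each list, beside 59.7% and 61.5% for all genes. Of 28 members higher at 72 h, 12 were also higher in ARID2 knockdown (42.9%, all genes 43.7%) and 10 in the labelled Aiolos libraries (35.7%, all genes 56.8%). HSPA1L, which passed the limit only through the drug-treated and ARID2 knockdown groups, is among the 12. Calls in opposite directions were not counted over all genes, so their numbers among the members are only a description. Opposite calls, higher at 72 h and lower with the hairpin, were found for 7 members with each hairpin, HSPA13, HSPB1, DNAJC25, DNAJC12, DNAJC5 and DNAJB1 in both and DNAJC10 with ARID2 or DNAJC1 with the labelled Aiolos hairpin. The reverse, lower at 72 h and higher with the hairpin, held for HSPA8 and DNAJC21 with both, HSF2 with ARID2, and HSP90AB1 and DNAJC11 with labelled Aiolos. Beside the calls of DNAJB1, HSPB1 and DNAJC25 at 72 h, HSF2 with ARID2 and HSP90AB1 with labelled Aiolos already given as lost in other fits, several of these were close to the threshold. With ARID2 DNAJB1 lost its call without control knockdown replicate 2 or 3 (adjusted p = 0.0669 and 0.174), without ARID2 knockdown replicate 1 or 2 (0.0537 and 0.0891) and under quantile normalization (0.0957). With the same hairpin DNAJC10 lost its call without ARID2 knockdown replicate 1 or 2 (adjusted p = 0.0518 and 0.0565), and DNAJC5 without ARID2 knockdown replicate 1 (0.0555). DNAJC1 and DNAJC21 lost the 72 h call, DNAJC1 under medians of ratios (adjusted p = 0.344) and DNAJC21 without untreated replicate 1 or 3 or pomalidomide 72 h replicate 1 or 2 (adjusted p of 0.0502 to 0.0565). DNAJC11 lost the labelled Aiolos call under medians of ratios (adjusted p = 0.2) and without control knockdown replicate 2 or Aiolos knockdown replicate 2 (0.179 and 0.108). Each hairpin call is against control knockdown, which for several of these genes, HSPA8, HSPA13 and DNAJC12 among them, itself differed from untreated cells. The difference between the effects was tested for each gene. For HSPA13 the 72 h drug effect exceeded that of ARID2 by 1.42 ± 0.08, adjusted p = 5.49e-12, and that of labelled Aiolos by 1.64 ± 0.08, adjusted p = 7.14e-13. For HSPA4L it lay below that of ARID2 (-1.44 ± 0.10, adjusted p = 5.43e-11), and for HSPB1 above that of labelled Aiolos (1.67 ± 0.11, adjusted p = 5.39e-11). Counting all members, 20 had a higher and 17 a lower effect at 72 h than with ARID2 (all genes 40.4% and 29.1%, 69.5% called), and 22 and 16 than with labelled Aiolos (35% and 28%, 63% called). Across the 55 genes the 72 h and ARID2 log2 changes correlated at r = 0.206 and the 72 h and labelled Aiolos changes at r = 0.277 (n = 55 genes), beside 0.351 and 0.487 across all 12559 genes. Genes of a library are not independent replicates.

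**Figure D4:**
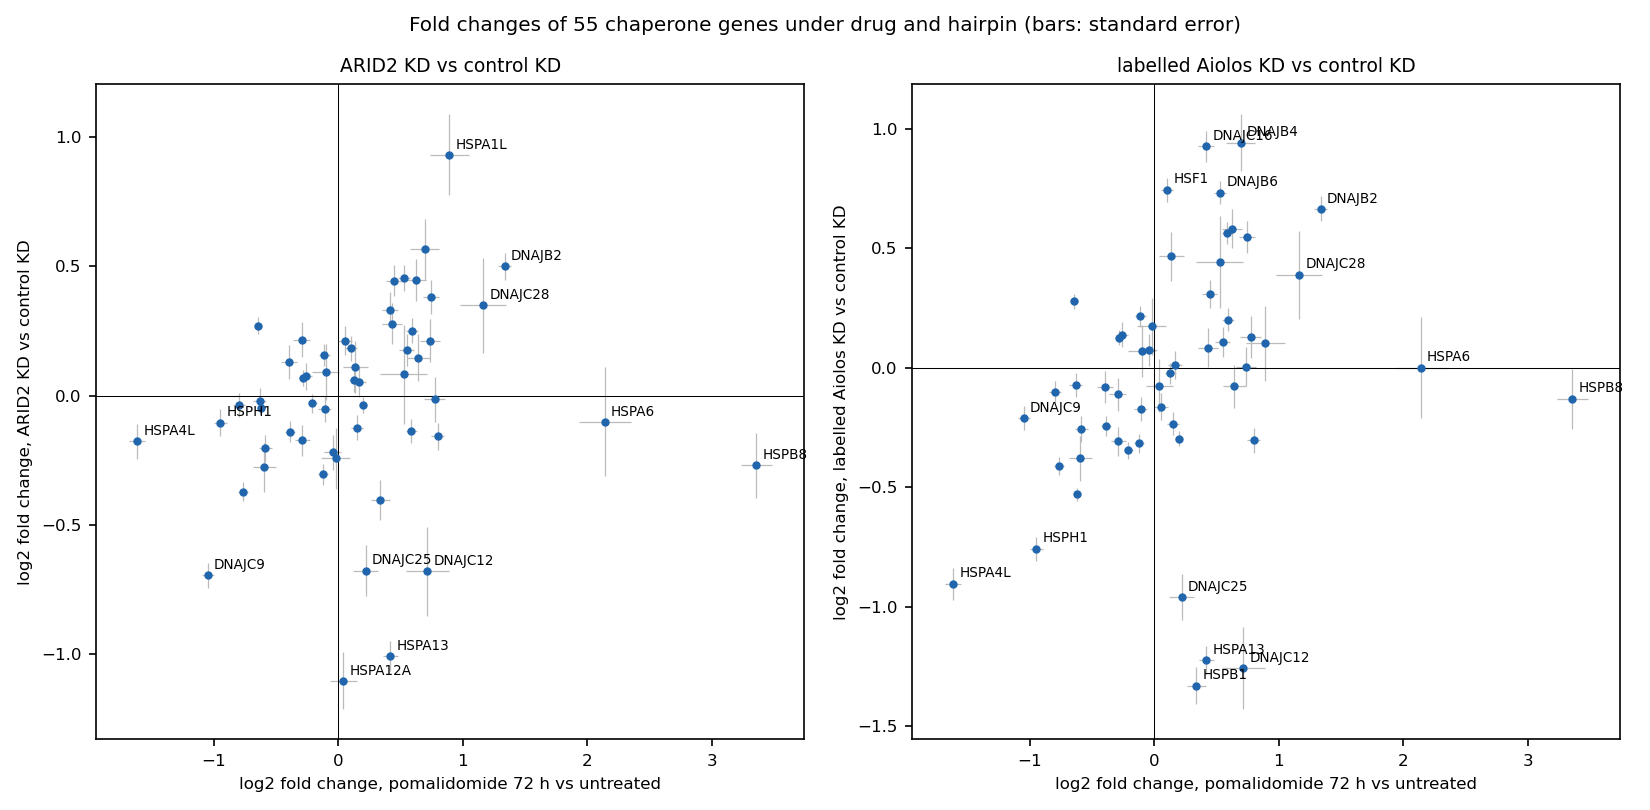
Log2 fold change of TPM + 1 after 72 h of pomalidomide against untreated cells (x axis) and with each hairpin against control knockdown (y axis, ARID2 left, labelled Aiolos right) for the 55 genes, with standard errors as bars. HSPB8 and HSPA6 lie far right near 0 on the hairpin axis, HSPA4L lies far left, and HSPA13 lies low in both panels.

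The control knockdown differed from untreated cells by itself, at 9 members higher and 27 lower, where 17.3% of all genes were higher and 28.4% lower (45.7% called). HSP90AA1 was at 307, 292 and 287 TPM in control knockdown against 515, 524 and 521 TPM in untreated cells (-0.82 ± 0.05, adjusted p = 2.24e-10). HSPA8 was at 985, 992 and 1017 TPM in control knockdown against 1745, 1741 and 1724 TPM in untreated cells (-0.80 ± 0.03, adjusted p = 3.76e-13). HSPH1 was at 47.5, 46.2 and 47.9 TPM in control knockdown against 84.8, 84.8 and 83.5 TPM in untreated cells (-0.83 ± 0.05, adjusted p = 1.87e-10). HSPA1B was at 56.1, 52.8 and 58.8 TPM in control knockdown against 109, 102 and 108 TPM in untreated cells (-0.92 ± 0.07, adjusted p = 1.54e-09). These 4 cytosolic chaperones were thus lower in cells labelled control knockdown than in untreated cells, and culture time, transduction and hairpin cannot be told apart in that comparison.

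Other genes of the folding machinery were counted in lists. Genes named from a list here and in the next paragraph had its smallest p at 72 h against untreated cells. They are therefore not typical of it. Among all genes 48.1% were higher and 31.6% lower at 72 h, and counts near these shares are no result about a list. At 24 and 48 h 31% and 34.8% of all genes were lower, and 29.2% and 30.7% with the ARID2 and labelled Aiolos hairpins. All 8 subunits of TRiC, the cytosolic chaperonin that folds actin and tubulin, were lower at each drug time (median log2 changes -0.57, -0.90 and -0.62). With the hairpins 8 were lower in the labelled Aiolos libraries (-0.31) and 5 in ARID2 knockdown (-0.13), where quantile normalization gives 3 higher and 3 lower. The subunit CCT5 was at 143, 143 and 149 TPM at 72 h against 225, 232 and 228 TPM in untreated cells (-0.65 ± 0.03, adjusted p = 8.34e-15). Another subunit, CCT4, was at 218, 208 and 226 TPM at 72 h against 376, 397 and 374 TPM in untreated cells (-0.81 ± 0.04, adjusted p = 4.71e-14). Of 6 prefoldin subunits, which deliver clients to TRiC, 1 was higher and 4 lower at 72 h, among them PFDN2 (-0.64) and VBP1 (-0.64). Of 15 co-chaperones of HSP90, 2 were higher and 9 lower at 72 h (4 and 9 without Aiolos knockdown replicate 3). FKBP4, an immunophilin on HSP90, was at 127, 128 and 142 TPM at 72 h against 252, 245 and 257 TPM in untreated cells (-0.92 ± 0.04, adjusted p = 1.2e-14). AHSA1, the activator of the HSP90 ATPase, was at 103, 100.3 and 105 TPM at 72 h against 162, 168 and 170.3 TPM in untreated cells (-0.69 ± 0.03, adjusted p = 5.61e-14). Of 13 partners of HSP70, 4 were higher and 6 lower, with BAG2 at 2.11 ± 0.228 TPM at 72 h against 7.20 ± 0.662 TPM in untreated cells (-1.40). SIL1, the exchange factor of the ER HSP70, was at 54.9 ± 3.05 TPM at 72 h against 35.0 ± 0.908 TPM in untreated cells (0.64). Of 9 mitochondrial proteostasis genes, 1 was higher (SPG7, 0.92) and 6 lower (CLPB among them, -0.70).

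Of 13 other genes counted as HSF1 targets, 5 were higher and 8 lower at 72 h (38.5% and 61.5%, all genes 48.1% and 31.6%). SERPINH1, the ER chaperone of collagen, was at 0.621, 0.880 and 0.394 TPM in untreated cells and 20.2, 20.6 and 22.8 TPM, 44.3, 44.7 and 41.7 TPM and 27.5, 28 and 25.3 TPM at 24, 48 and 72 h. Like HSPB8 it was at 1 TPM or less in untreated cells and rose in every treated library (4.11 ± 0.11, adjusted p = 6.15e-18 at 72 h). With the hairpins it was at 0.668, 1.02 and 1.08 TPM in ARID2 knockdown and 0.718, 0.866 and 0.942 TPM in labelled Aiolos knockdown, against 1.38, 0.938 and 1.21 TPM in control knockdown. CACYBP, a calcyclin-binding protein, fell to 137, 119 and 132 TPM at 72 h, against 313, 298 and 291 TPM in untreated cells (-1.22 ± 0.05, adjusted p = 2.08e-15). The 14 ER chaperones outside the naming rule had 9 higher and 3 lower at 72 h, and all 14 were lower in ARID2 knockdown and all 14 in the labelled Aiolos libraries (medians -0.71 and -0.63). HSPA5, the ER HSP70 known as BiP, was at 1376, 1339 and 1422 TPM at 72 h against 750.1, 739 and 734 TPM in untreated cells (0.89). It was at 556, 566 and 594 TPM in ARID2 knockdown and 533, 565 and 573 TPM in labelled Aiolos knockdown, against 896, 943 and 938 TPM in control knockdown (-0.69 and -0.73). DNAJB9, its J protein and a classic gene of the unfolded protein response, was at 385, 348 and 378 TPM at 72 h against 116, 109 and 113 TPM in untreated cells (1.70 ± 0.05, adjusted p = 2.69e-17). As with HSPA13, the control knockdown stood above untreated cells for 12 of these 14 genes, with 1 lower (none lower without untreated replicate 1 or control knockdown replicate 1 or 3). In that comparison 17.3% of all genes were higher and 28.4% lower.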

How the data were processed

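RNA of MM.1S cells was sequenced from libraries made with the TruSeq RNA kit v2, which does not mark strand. The deposited values are TPM per gene symbol, computed by the authors, with the hg38 build per the submitters' processing notes. Aligner, quantifier and annotation: not given in the sources used here. A TPM is a share of the library and keeps no depth, so no counting interval could be given. Listed values sum to 951444 to 968652 TPM per library.

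Genes reaching 1 TPM in 3 or more of 21 libraries were kept. On log2(TPM + 1), 7 group means were fitted with limma 3.58.1 in R 4.3.3, with an empirical Bayes trend (14 residual and 5.28 prior degrees of freedom), 11 contrasts and Benjamini-Hochberg adjustment over all 12559 genes at 0.05. The step was tested on simulated data. The members and gene lists were chosen with earlier results of these data known. Named in full were 14 core genes and, per comparison against untreated or control knockdown, the 4 largest rises and falls that passed without overlap at 5 TPM or more. From each list of other folding genes, those with the smallest p at 72 h against untreated cells were named. Positions are from GENCODE 29, with 19 members overlapping exons on the opposite strand, and promoters are from RefSeq, which had no entry for 5 members. Alternatives were a pseudocount of 0.1, no filter, median-of-ratios scaling, quantile normalization, a replicate block and each library left out. The alternatives for the summed level and for genes named outside that rule were chosen after seeing the data.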

Additional observations from a re-analysis of the deposited data

Results flagged for a closer look

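The drug effect differed between neighbouring times for many of the named genes, by the limma contrast of the later with the earlier time. All values here are differences of log2(TPM + 1), positive where the later time was higher, with 3 libraries a group and adjusted p at most 0.0325. Some genes are named in both steps.

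Between 24 and 48 h the level rose for 15 genes, which were HSPB8 (1.20), HSPA6 (0.64), DNAJB2 (0.53), DNAJB6 (0.48), DNAJB4 (0.48), DNAJC30 (0.41), DNAJC10 (0.39), DNAJC4 (0.38), DNAJC5 (0.33), DNAJC16 (0.32), HSPB1 (0.31), DNAJB1 (0.22), HSPA1B (0.21), HSPH1 (0.19) and DNAJA1 (0.17). The rise of HSPB8, the BAG3 partner, was the largest of these. The calls of HSPA6 and HSPA1B were lost with 1 library left out. The level fell for 6 genes in the same step, DNAJC9 (-0.74), HSPA14 (-0.60), HSPA9 (-0.35), HSPA4L (-0.26), HSPA13 (-0.24) and HSPD1 (-0.23). These include the mitochondrial HSPD1 and HSPA9 and the histone chaperone DNAJC9.

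Between 48 and 72 h the level rose for 18 genes, which were HSPA6 (2.08), HSPA1B (0.70), HSPA13 (0.67), DNAJC25 (0.49), HSPA14 (0.39), HSPA9 (0.39), DNAJB1 (0.33), HSF2 (0.32), DNAJC9 (0.30), HSP90AA1 (0.29), HSPE1 (0.25), HSPD1 (0.24), DNAJC27 (0.22), DNAJB12 (0.22), DNAJB2 (0.19), HSP90AB1 (0.18), HSF1 (0.15) and DNAJA1 (0.13). Both HSP90 genes, the mitochondrial chaperonin pair and the stress-inducible HSPA6 and HSPA1B are among them. It fell in that step for 2 genes, HSPA4L (-0.36) and HSPB1 (-0.27). The calls of DNAJA1, DNAJC27 and HSF1 in this step were lost with 1 library left out, and those of DNAJA1, DNAJB2, DNAJB12, DNAJC27 and HSF1 under at least 1 other scaling. No explanation of these steps was tested.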

How the results depend on the processing

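Of 649 gene results (59 genes in 11 contrasts), 128 changed their side of the threshold or their sign under at least 1 alternative, 90 of them when a library was left out. A pseudocount of 0.1 changed 2 of them. Median-of-ratios scaling added 25 calls, removed 25 and turned 2 signs, and quantile normalization added 21, removed 31 and turned 5. The median of all genes at 72 h moved by -0.146 with median-of-ratios scaling, by -0.101 with quantile normalization and by -0.107 without the filter on low values. The signs that turned were, with median-of-ratios scaling, DNAJA1 (-0.034) and DNAJB1 (-0.014) at 72 h. With quantile normalization they were DNAJA1 at 48 h (0.16, adjusted p = 0.0059), CCT4 at 72 against 48 h (-5e-04), CCT4 in ARID2 knockdown (0.10, adjusted p = 0.0186), and HSP90AB1 (0.15) and HSPA8 (0.12) in ARID2 against labelled Aiolos knockdown. The cause was not tested.

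The members lower at 72 against 48 h numbered 3 as deposited, 8 with median-of-ratios scaling and 7 with quantile normalization. The summed level after median-of-ratios scaling, chosen after seeing the data, was 69.2%, 68% and 71.5% of untreated at 24, 48 and 72 h. With the same scaling it was 96.5% in ARID2 knockdown and 92.6% in labelled Aiolos knockdown of control knockdown, and 75.9% in control knockdown of untreated cells. The other counts of members stayed within 1.5 times of those reported under these settings.

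With 1 library left out, members higher and lower numbered 13 to 15 and 21 to 25 at 24 h, 20 to 22 and 21 to 23 at 48 h, and 25 to 29 and 17 to 20 at 72 h. They numbered 17 to 20 and 9 to 11 at 48 against 24 h, and 23 to 26 and 2 to 4 at 72 against 48 h. They were 15 to 18 and 12 to 18 in ARID2 knockdown, 14 to 17 and 19 to 23 in labelled Aiolos knockdown, and 9 to 10 and 24 to 28 in control knockdown against untreated cells. ARID2 against labelled Aiolos knockdown gave 12 to 21 and 11 to 12, the 12 higher without ARID2 knockdown replicate 3. The 72 h effect minus the ARID2 effect gave 20 to 21 and 16 to 18, and minus the labelled Aiolos effect 20 to 23 and 14 to 18. The summed level ran at 71.8% to 71.9%, 71.3% to 72.3% and 79.1% to 81.5% of untreated at the 3 drug times. It ran at 97.9% to 99.6% and 95.1% to 98.3% of control knockdown with the ARID2 and labelled Aiolos hairpins, and at 73.8% to 74.4% of untreated in control knockdown. Of the 41 steps between drug times listed for a closer look, 37 kept their call with median-of-ratios scaling, 37 with quantile normalization and 36 with any 1 library left out. Lost with scaling were the 72 against 48 h steps of DNAJA1, DNAJB2 and HSF1 (both scalings), DNAJC27 (median of ratios) and DNAJB12 (quantile). Lost without a library were those of DNAJA1, DNAJC27 and HSF1 and the 48 against 24 h steps of HSPA6 and HSPA1B.

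Replicate numbers did not pair the libraries. Deviations of same-numbered libraries from their group means correlated at -0.125 to 0.11 over 63 pairs, and those of other numbers at -0.178 to 0.17 over 126 pairs. With a replicate block the counts at 72 h were again 28 higher and 19 lower. The block removed the calls of CCT4 at 72 against 48 h (0.09, adjusted p = 0.0533) and DNAJB1 in ARID2 against labelled Aiolos knockdown (0.11, adjusted p = 0.0654), and added HSPA9 at 72 h against the labelled Aiolos effect (-0.09, adjusted p = 0.0457). Having 3 libraries a group and values without depth limits what can be said of members near 1 TPM, such as HSPA1L and DNAJC28. TPM are shares, so a lower value need not mean fewer molecules per cell.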
